A study of Homo sapiens with 4 samples.

Results

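The 50 genes described here encode the cyclins, the cyclin-dependent kinases (CDKs), the CDK inhibitors, the retinoblastoma and E2F proteins, the replication licensing factors and a set of mitotic regulators. They were chosen by gene symbol, and each of them was found among the 58274 genes of the expression table. The table covers 4 populations from a culture in which BC1, an induced pluripotent stem cell line of human origin, is turned into blood progenitors. They are the undifferentiated line, the mesoderm sorted for APLNR at day 2 (APLNR+), the hemogenic endothelial progenitors (HEPs) sorted for CD31 and CD34 at day 5 (CD31+CD34+) and the hematopoietic progenitor cells (HPCs) sorted for CD43 at day 8 (CD43+). The 3 differentiated populations had activin A and BMP4 for the first 2 days. APLNR+ cells were collected at the end of that stage, and the CD31+CD34+ and CD43+ populations were then grown with VEGF and bFGF, so population, time and treatment cannot be told apart. Every population came from the same cell line and was measured in 1 library, so no difference below has a replicate check, and neither a test nor a p-value accompanies it.

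The cell cycle is driven by CDKs, which are active only when bound to a cyclin. In G1, cyclin D with CDK4 or CDK6 and cyclin E with CDK2 phosphorylate the retinoblastoma protein and release E2F transcription factors, whose targets include genes for DNA synthesis. Before S phase, CDC6 and CDT1 load the MCM2 to MCM7 helicase on replication origins, and geminin blocks a second loading. Cyclin B with CDK1 then drives mitosis, which ends when the anaphase-promoting complex and its activator CDC20 mark cyclin B for destruction. The INK4 inhibitors (CDKN2A to CDKN2D) bind CDK4 and CDK6, and the CIP/KIP inhibitors (CDKN1A and CDKN1B among them) bind cyclin-CDK complexes more widely.

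Levels are given in FPKM, which scales fragments to transcript length and to the depth of the library, so they can be set side by side between genes. Changes are given on the log2(FPKM + 1) scale, which understates the change of genes with low values, and a gene is said to rise or fall only where this change was at least 1. Folds are ratios of FPKM with a 95% interval, which was computed from an approximate number of fragments and covers counting error only. The recovered depth was between 19700000 and 23600000 mapped fragments per library. POU5F1, NANOG and SOX2 summed to 2192 FPKM in BC1, and 4 mesoderm genes to 1849 FPKM in APLNR+. The 4 hematopoietic genes summed to 1401 FPKM in CD43+. All 5 endothelial genes were above 1 FPKM in CD31+CD34+, with a sum of 1215 FPKM, but all 5 were also above 1 FPKM in CD43+, with a sum of 287 FPKM, and PECAM1 was at 93.1 FPKM in the first and 126 FPKM in the second. The CD43+ library also held transcripts of more mature blood cells. Its 4 erythroid genes summed to 10996 FPKM, against 25.1 FPKM in CD31+CD34+ and at most 1.72 FPKM before, and its 4 megakaryocytic genes to 2091 FPKM, against 26.5 FPKM in CD31+CD34+ and at most 3.37 FPKM before. In these bulk libraries, fewer cells of a type or cycle phase and less RNA per cell cannot be told apart.

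Of the 50 genes, 49 reached 1 FPKM in at least 1 library and 45 did so in all 4. CDKN2B stayed below 1 FPKM throughout. CCNA1 passed only through BC1 and E2F2 only through CD43+, CDKN2C passed through CD31+CD34+ and CD43+, and CDKN2A was below 1 FPKM in APLNR+ alone. From BC1 to APLNR+, 3 of the 49 genes rose and 1 fell, while 9.15% of all 17137 genes tested rose and 9.32% fell. At the second step, from APLNR+ to CD31+CD34+, there were 7 that rose and 3 that fell, against 13% and 11.4% of all genes. At the last step, into CD43+, 3 rose and 8 fell, against 7.63% and 13.5%. Between the ends of the series, BC1 and CD43+, 9 rose and 6 fell, against 15.2% and 18.9%. CCNA1 was the gene that fell at the first step, and CDKN2C was among those that rose at the second. Between the ends, CCNA1 was again counted as falling and CDKN2C as rising. Both passed the filter only through libraries where they were high, so they are no support for these counts. The median change of the 49 genes was -0.06, -0.09 and 0.03 at the consecutive steps, close to 0.00, 0.01 and -0.08 over all genes. This median hides changes in both directions, which between BC1 and CD43+ went from -2.69 (CCND1) to 4.54 (CCND3) within the G1 class alone. Consecutive steps share a library, so a gene that is high or low in CD31+CD34+ changes in opposite directions at the steps on either side of it.

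**Figure D1:**
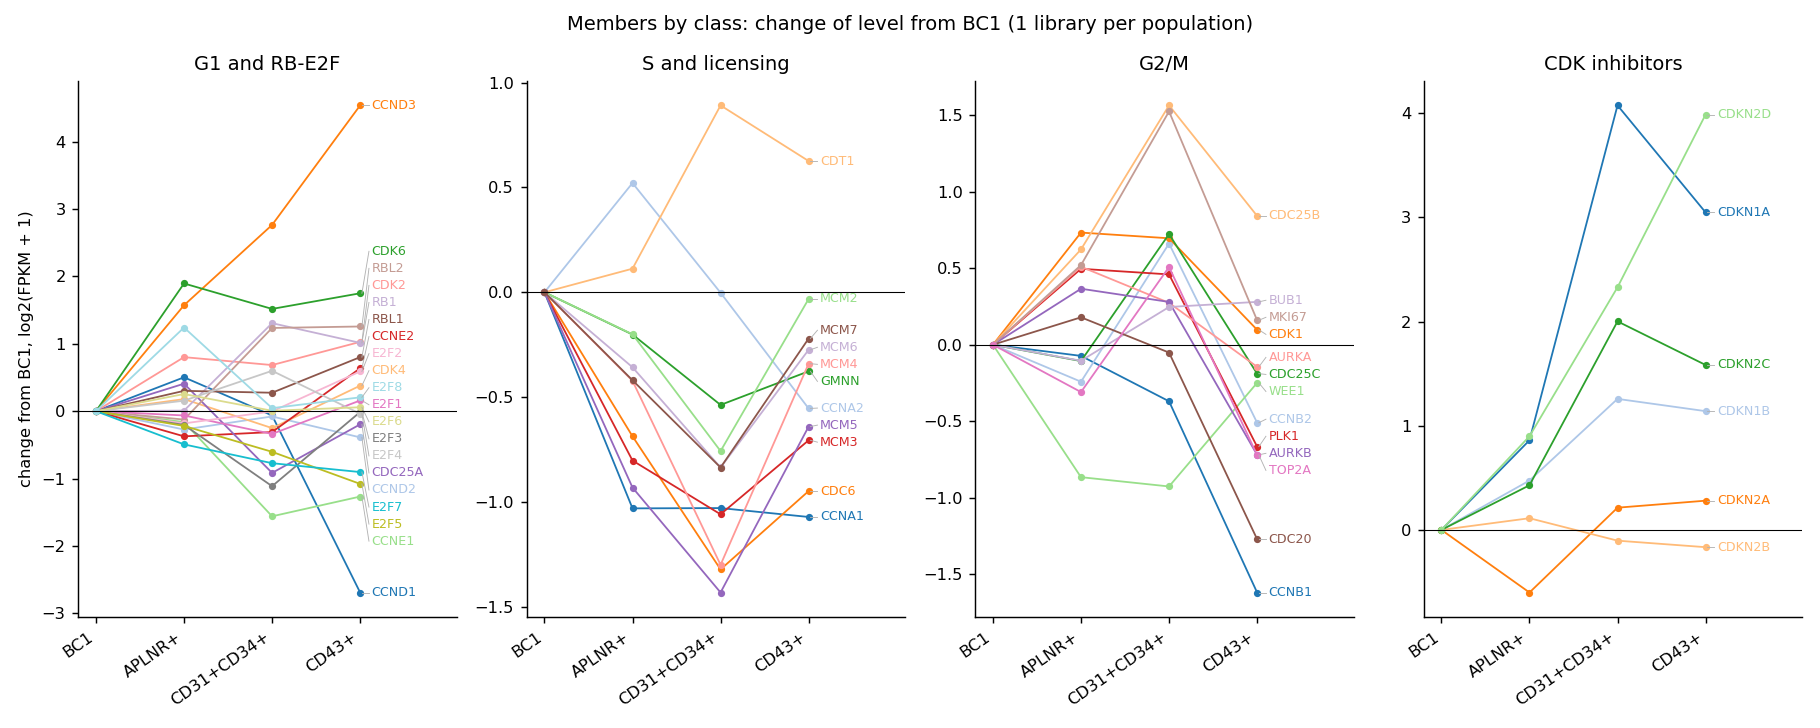
Change of each of the 50 genes from its BC1 level on the log2(FPKM + 1) scale (vertical axis, scaled separately in each panel) in the 4 libraries (horizontal axis), with 1 line per gene and 1 panel per class. The CDK inhibitors lie at or above BC1 in CD43+ except CDKN2B, most S-phase and licensing genes dip to their lowest point in CD31+CD34+, and 8 of the 13 G2/M genes are lowest in CD43+, against 31.4% of all genes.

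The classes also differed in the short sequences of their promoters, which are shown for 3 G2/M genes that fell at the last step and for 1 of the MCM genes, all of which were lowest in CD31+CD34+. E2F proteins bind sites such as TTTCCCGC and TTTGGCGC. The cell cycle genes homology region (CHR), TTTGAA or TTCGAA, is bound by the MuvB core of the DREAM and MYB-MuvB complexes, and many G2/M promoters pair it with a CCAAT box. These letters were searched on both strands of the RefSeq promoter windows of GRCh38.p14, each from 250 bases before to 50 bases after a start, and 40 of the 50 genes had a window. Either E2F site was present in 6 of the 9 S-phase and licensing genes with a window (CDC6, CDT1, GMNN, MCM3, MCM6 and MCM7), in 5 of 14 G1 genes, and in 0 of 11 G2/M genes and 0 of 6 inhibitor genes, against 2.75% of all 27305 genes. Either CHR was present in 9 of 11 G2/M genes, against 19.5% of all genes. It was present in 2 of 14 G1 genes, 1 of 9 S-phase and licensing genes (MCM6) and 0 of 6 inhibitor genes. A CCAAT box was present in all 11 G2/M genes, against 39.7% of all genes. It was also present in 6 of 9 S-phase and licensing genes, 6 of 14 G1 genes and 3 of 6 inhibitor genes. Of the 6 G2/M genes that fell at the last step, 5 held TTTGAA, which 18.2% of all genes hold, and CCNB1 did not. The other G2/M genes held TTTGAA less often, in 2 of 5 with a window. They held either CHR about as often, in 4 of 5, against 5 of the 6 that fell. Either CHR therefore does not separate the genes that fell from the rest of the class, and the TTTGAA counts are too small to do so. A match of letters is a description and not evidence of binding.

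The stretches below run 5′ to 3′ along the strand of the gene. The capitals mark each CHR and CCAAT match in CDC20 (chr1:43358788-43358954, plus strand), MKI67 (chr10:128126424-128126513, minus strand) and TOP2A (chr17:40417992-40418105, minus strand), and each E2F match in MCM6 (chr2:135876476-135876610, minus strand). TTCAAA and ATTGG are the CHR and the CCAAT box read on the opposite strand, and in MKI67 the last CHR and the CCAAT box share 1 base. CDC20, MKI67 and TOP2A each held 2 CHR matches. Of the other G2/M genes that fell at the last step, CCNB2 and PLK1 held fewer and CCNB1 held no CHR match. MCM6 held 2 E2F matches, more than any other S-phase or licensing gene. The printed stretches are thus the richest in matches and are not typical of their groups.
CDC20: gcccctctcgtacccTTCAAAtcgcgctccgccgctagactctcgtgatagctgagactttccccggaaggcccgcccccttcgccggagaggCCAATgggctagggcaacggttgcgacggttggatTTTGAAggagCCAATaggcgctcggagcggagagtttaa
MKI67: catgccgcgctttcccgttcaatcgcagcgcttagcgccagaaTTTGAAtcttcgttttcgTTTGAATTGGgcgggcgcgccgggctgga
TOP2A: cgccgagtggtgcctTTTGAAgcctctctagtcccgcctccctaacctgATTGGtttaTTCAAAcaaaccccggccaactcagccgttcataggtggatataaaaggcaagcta
MCM6: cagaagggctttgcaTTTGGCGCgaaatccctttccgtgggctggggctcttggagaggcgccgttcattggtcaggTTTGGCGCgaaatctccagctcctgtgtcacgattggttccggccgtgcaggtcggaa

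The D cyclins, which carry growth signals to CDK4 and CDK6, exchanged places along the series. CCND3 (chromosome 6, 41934933 to 42050357) started from 18.2 FPKM in BC1, stood at 56.1 FPKM in APLNR+, then at 129 FPKM in CD31+CD34+, and reached 446 FPKM in CD43+. It was the only one of the 50 genes to rise at each of the 3 steps, by 1.57, 1.19 and 1.77, though CDKN2D did so too with other settings. The level of CCND3 in CD43+ was 24.5-fold that in BC1 (95% interval 22.4 to 26.7). CCND1 (chromosome 11, 69641087 to 69654474) was at 97.2, 138, 93.0 and 14.2 FPKM in the same order. It stayed high through CD31+CD34+ and fell at the last step, with a change of -2.63 on the log2 scale and a 6.55-fold difference (6.04 to 7.12). CCND1 shares 497 exon bases with LTO1 on the opposite strand, which was at 12.3 FPKM in CD43+, so its level there is uncertain. CCND2 was at 10.6, 8.60, 9.99 and 7.86 FPKM and passed a change of 1 at no step.

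The make-up of the D cyclin transcripts turned over between BC1 and CD43+. CCND1 made up 77.1% of the summed D cyclin FPKM in BC1 and 68.1% in APLNR+, but 40.0% in CD31+CD34+ and 3.04% in CD43+. The share of CCND3 was 14.4%, 27.7%, 55.7% and 95.3%. The sum itself was 126, 203, 232 and 468 FPKM, so the loss of CCND1 transcripts was smaller than the gain of CCND3. The erythroid and megakaryocytic transcripts given above rose in the same library in which CCND3 was highest and CCND1 lowest, and their part in this exchange was not tested.

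**Figure D2:**
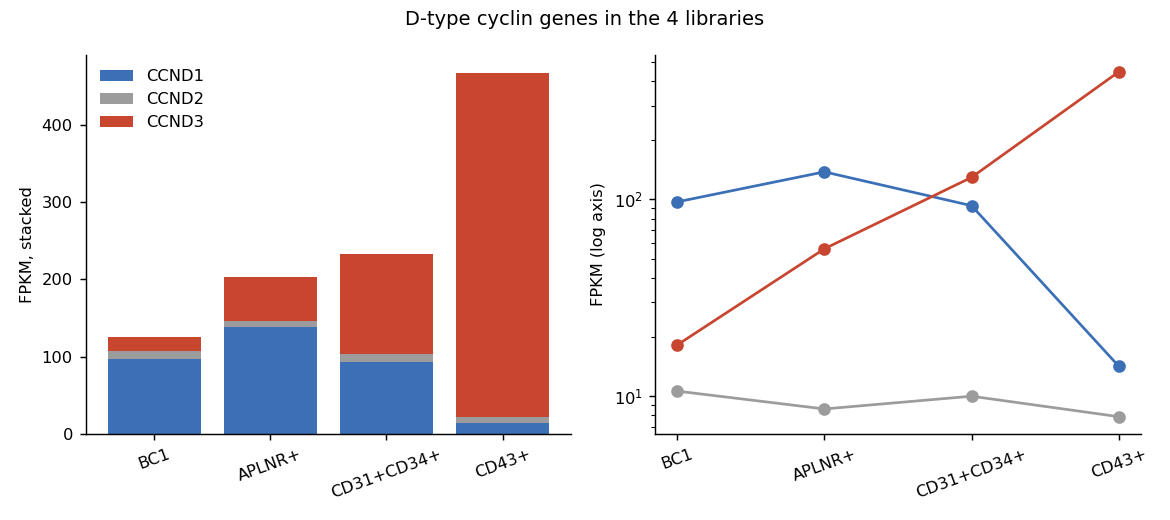
FPKM of CCND1, CCND2 and CCND3 in the 4 libraries, stacked on a linear axis from 0 (left) and as separate lines on a log axis (right). CCND1 forms most of the BC1 bar, while CCND3 forms nearly the whole CD43+ bar of 468 FPKM.

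Their partner kinases took different courses. CDK6 was at 2.87, 13.4, 10.1 and 12.0 FPKM. It rose at the first step, 4.67-fold (4.17 to 5.25), and held a level close to that afterwards. CDK4 was at 81.2, 92.1, 68.1 and 106 FPKM and was above CDK6 in every library. CDK4 shares 1369 exon bases with TSPAN31 on the opposite strand, which reached 28.0 FPKM in CD31+CD34+, and the strand setting of the counting is not given in the sources used here.

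Among the genes of the G1 to S transition, cyclin E1 was lower in both later populations. CCNE1 was at 20.5, 18.2, 6.28 and 7.93 FPKM. It fell at the second step, with a change of -1.40 and a 2.90-fold difference (2.46 to 3.42). CCNE2, the second E-type cyclin, was at 1.99, 1.31, 1.41 and 3.65 FPKM, a change of 0.95 at the last step. CCNE2 shares 1629 exon bases with INTS8 on the opposite strand, which was at 30.9 FPKM or more in each library, so its level is uncertain. CDK2, the kinase of both E cyclins, was at 30.0, 53.1, 48.8 and 62.3 FPKM. It rose between BC1 and CD43+ by 1.03, which became 0.97 when each library was rescaled to the same total (TPM). CDC25A, the phosphatase that activates CDK2, was at 26.5, 35.5, 13.6 and 23.0 FPKM. Like CCNE1 it fell from APLNR+ to CD31+CD34+, with a change of -1.32. CCNE1 and CDC25A were thus both lowest in CD31+CD34+.

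Of the retinoblastoma family, which holds E2F factors in check, 2 of the 3 genes rose into CD31+CD34+, against 13% of all genes. RB1 was at 6.48, 6.53, 17.5 and 14.1 FPKM and rose from APLNR+ to CD31+CD34+, 2.68-fold (2.37 to 3.05). RBL2, the gene of p130, was at 7.48, 6.78, 19.0 and 19.3 FPKM and rose at the same step, 2.80-fold (2.43 to 3.23). RBL2 shares 610 exon bases with AKTIP on the opposite strand, which was at 7.18 FPKM in APLNR+ but 14.6 FPKM in CD31+CD34+. RBL1, the gene of p107, was at 3.26, 4.25, 4.15 and 6.42 FPKM and passed a change of 1 at no step. The sum of the 3 genes was 17.2, 17.5, 40.6 and 39.8 FPKM. The rise of RB1 between BC1 and CD43+, 1.01, became 0.98 under TPM scaling.

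The 8 E2F genes summed to between 129 and 149.8 FPKM in the 4 libraries, and E2F4, a repressor that acts with p107 and p130, gave the largest share in each. E2F4 was at 61.4, 68.6, 93.6 and 59.8 FPKM, from 43.4% of the E2F sum in BC1 to 62.5% in CD31+CD34+. The activators E2F1 and E2F3 were both lowest in CD31+CD34+. E2F3 was at 12.8, 11.0, 5.37 and 12.7 FPKM and rose at the last step, 2.36-fold (2.13 to 2.62), back to a level close to that of BC1. E2F1 was at 25.0, 23.9, 19.6 and 28.1 FPKM with no change of 1. E2F2, the third activator, was between 0.227 and 1.09 FPKM. E2F8, an atypical repressor, was at 2.96, 8.35, 3.08 and 3.56 FPKM, so that it rose at the first step and fell at the second, with changes of 1.24 and -1.20. E2F7, its relative, lay between 2.75 and 6.01 FPKM, and E2F6 between 9.58 and 11.6 FPKM. E2F5 was at 23.4, 19.9, 15.0 and 10.5 FPKM and fell between BC1 and CD43+, with a change of -1.08. It shares 969 exon bases with C8orf59 on the opposite strand, which was at 46.2 FPKM or more in each library.

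The 6 MCM genes were each highest in BC1 and lowest in CD31+CD34+, though none passed a change of 1 at a step. Of the 11 S-phase and licensing genes, 8 were lowest in CD31+CD34+, against 19.2% of all genes. In BC1, 9 were highest, against 27.7%, but these include CCNA1, which passed the filter only through BC1. Their median change was -0.42, -0.48 and 0.37 at the 3 steps. CCNA1, at the first step, was the only one of the class to fall at a step, against 9.32%, 11.4% and 13.5% of all genes at the 3 steps. At each step 0 rose, against 9.15%, 13% and 7.63%. The first of the helicase subunits, MCM2, was at 107, 93.3, 63.1 and 105 FPKM. MCM3 was at 126, 71.6, 59.8 and 76.6 FPKM. MCM4 was at 302, 225, 122 and 238 FPKM. MCM4 had the highest FPKM of the 6 genes in each library, and its change at the last step, 0.96, was the one nearest to 1. MCM5 was at 111, 57.7, 40.5 and 70.8 FPKM. MCM6 was at 37.6, 29.2, 20.7 and 31.0 FPKM, and MCM7 was at 212, 158, 118 and 182 FPKM. All 6 genes, MCM6 with its pair of E2F matches included, therefore had their lowest level in the same library. In CD31+CD34+ they were at 36.5% (MCM5) to 58.8% (MCM2) of their BC1 level, and in CD43+ at 61.0% (MCM3) to 97.8% (MCM2). The 6 genes summed to 895, 635, 424 and 703 FPKM.

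The loading factors did not share 1 pattern. CDC6 was at 37.3, 22.8, 14.3 and 18.9 FPKM and followed the MCM genes. CDT1, the other loading factor, was at 43.2, 46.8, 81.0 and 67.3 FPKM, and was highest where the MCM genes were lowest. GMNN, the gene of geminin, which inhibits CDT1, was at 64.0, 55.5, 43.8 and 49.0 FPKM. The ratio of CDT1 to GMNN was therefore below 1 in BC1 and APLNR+, 0.676 and 0.843, and above 1 in CD31+CD34+ and CD43+, 1.85 and 1.37. Each of these courses rests on the single CD31+CD34+ library. In that library 3 fibroblast or stromal genes summed to 199 FPKM, against 29.2 to 35.1 FPKM in the other 3. COL1A1 alone gave 184 FPKM of it, while COL3A1 was at 8.94 FPKM and PDGFRB at 6.69 FPKM, and their part in the low MCM levels was not tested.

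**Figure D3:**
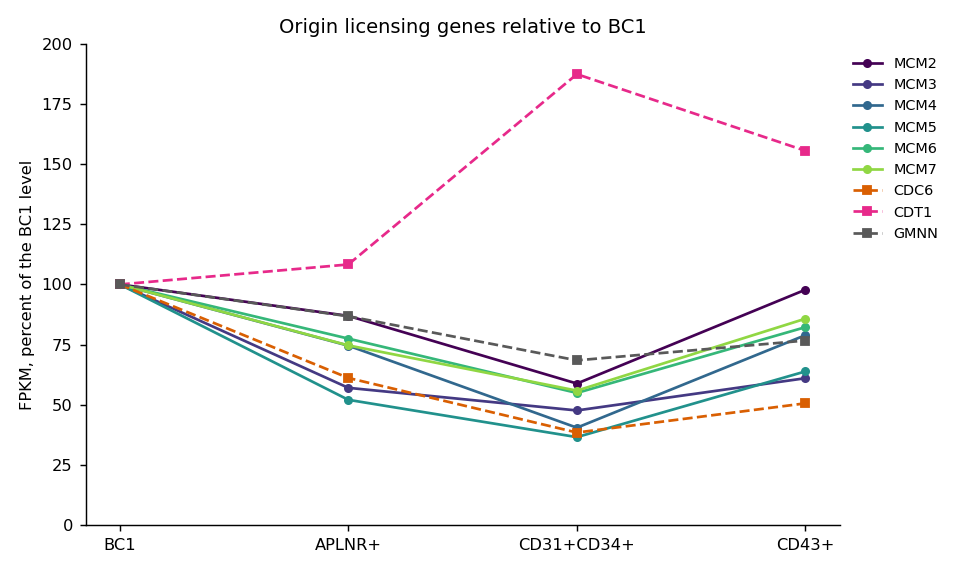
FPKM of MCM2 to MCM7, CDC6, CDT1 and GMNN as a percent of the BC1 level of each gene (vertical axis from 0) in the 4 libraries. The MCM genes, CDC6 and GMNN are lowest in CD31+CD34+, whereas CDT1 is at 187% of its BC1 level there.

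The A cyclins act from S phase into mitosis. CCNA2, the form used in most dividing cells, was at 34.5, 49.9, 34.4 and 23.2 FPKM and passed a change of 1 at no step. It shares 254 exon bases with EXOSC9 on the opposite strand, which was at 22.8 FPKM or more in each library. CCNA1, known from germ cells, was at 1.10, 0.029, 0.030 and 0 FPKM. It fell at the first step, where APLNR+ held about 1 fragment of the gene, a 38.2-fold difference with a counting interval of 5.83 to 1421. In CD43+, where it was listed at 0, it was at least 11.5-fold lower than in BC1 when taken against a floor of 3 fragments, and the counting interval alone allows a difference as small as 8.83-fold.

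Of the 13 G2/M genes, 6 fell at the last step and 0 rose, against 13.5% and 7.63% of all genes, and 7 passed a change of 1 in neither direction. By any amount, 11 of the 13 were lower, against 55.3% of all genes. The median change was -0.999, compared with -0.08 over all genes, after 0.18 and -0.04 at the earlier steps. Rescaling each library to the same total (TPM) moved the median of all genes at this step to -0.19 and that of the class to -1.12. The erythroid and megakaryocytic transcripts given above, from 25.1 to 10996 FPKM and from 26.5 to 2091 FPKM in sum, rose at this same step, and their part in it was not tested. Of the class, CCNB1, the gene of cyclin B1, fell most between the ends of the series. CCNB1 was at 123, 117, 94.9 and 39.3 FPKM, and its level in CD31+CD34+ was 2.41-fold that in CD43+ (2.22 to 2.62). CCNB2 was at 33.9, 28.5, 54.1 and 23.5 FPKM, a 2.30-fold difference at the last step (2.10 to 2.53). Both B cyclins were thus lowest in CD43+, but CCNB1 was highest in BC1 and CCNB2 in CD31+CD34+. Their kinase, CDK1, was at 43.1, 72.2, 70.3 and 46.1 FPKM, with a change of -0.60 at the last step.

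Of the regulators of mitotic entry and exit, CDC20 and PLK1 fell at the last step. CDC20, whose stretch with a pair of CHR matches is printed above, was at 99.2, 112, 95.7 and 40.5 FPKM, a 2.36-fold difference between CD31+CD34+ and CD43+ (2.21 to 2.52). PLK1, a kinase of mitotic entry and spindle assembly, was at 64.1, 90.9, 88.6 and 40.0 FPKM, a 2.21-fold difference (1.96 to 2.51). AURKB, the kinase of the chromosomal passenger complex, was at 84.9, 109.7, 103 and 51.2 FPKM. Its change at the last step, -0.999, was just short of being counted, and it passed 1 in size under TPM scaling. AURKA, the kinase of the spindle poles, was at 41.5, 59.5, 50.4 and 37.4 FPKM. The phosphatases that activate CDK1 were both highest in CD31+CD34+. CDC25B was at 9.97, 15.9, 31.4 and 18.7 FPKM, and CDC25C at 6.87, 6.31, 12.0 and 5.91 FPKM. CDC25C shares 293 exon bases with FAM53C on the opposite strand, which was at 20.4 FPKM or more in each library.

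WEE1 and BUB1 were the G2/M genes that were not lower in CD43+ than in CD31+CD34+. WEE1, the kinase that holds CDK1 inactive, was at 32.0, 17.1, 16.4 and 26.8 FPKM, so its level in CD43+ was 1.64-fold that in CD31+CD34+ (1.40 to 1.91). BUB1, a kinase of the spindle checkpoint, was at 35.5, 33.0, 42.3 and 43.4 FPKM, and its change at the last step was 0.03, or -0.08 under TPM scaling. The class therefore held 1 gene, WEE1, whose level was higher in CD43+ by more than its counting interval.

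The 2 genes best known as markers of dividing cells peaked in CD31+CD34+. MKI67 (chromosome 10, 128096659 to 128126385), the gene of the Ki-67 antigen, was at 13.3, 19.5, 40.2 and 15.0 FPKM. It rose from APLNR+ to CD31+CD34+, 2.06-fold (1.99 to 2.13), which at 1.004 was the smallest change counted, and fell at the next step, 2.68-fold (2.58 to 2.78). TOP2A, the topoisomerase that untangles chromosomes in mitosis, was at 62.9, 50.6, 89.9 and 37.8 FPKM and also fell at the last step, 2.38-fold (2.05 to 2.77). In CD31+CD34+ these G2/M markers were therefore at their highest while the MCM genes were at their lowest.

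**Figure D4:**
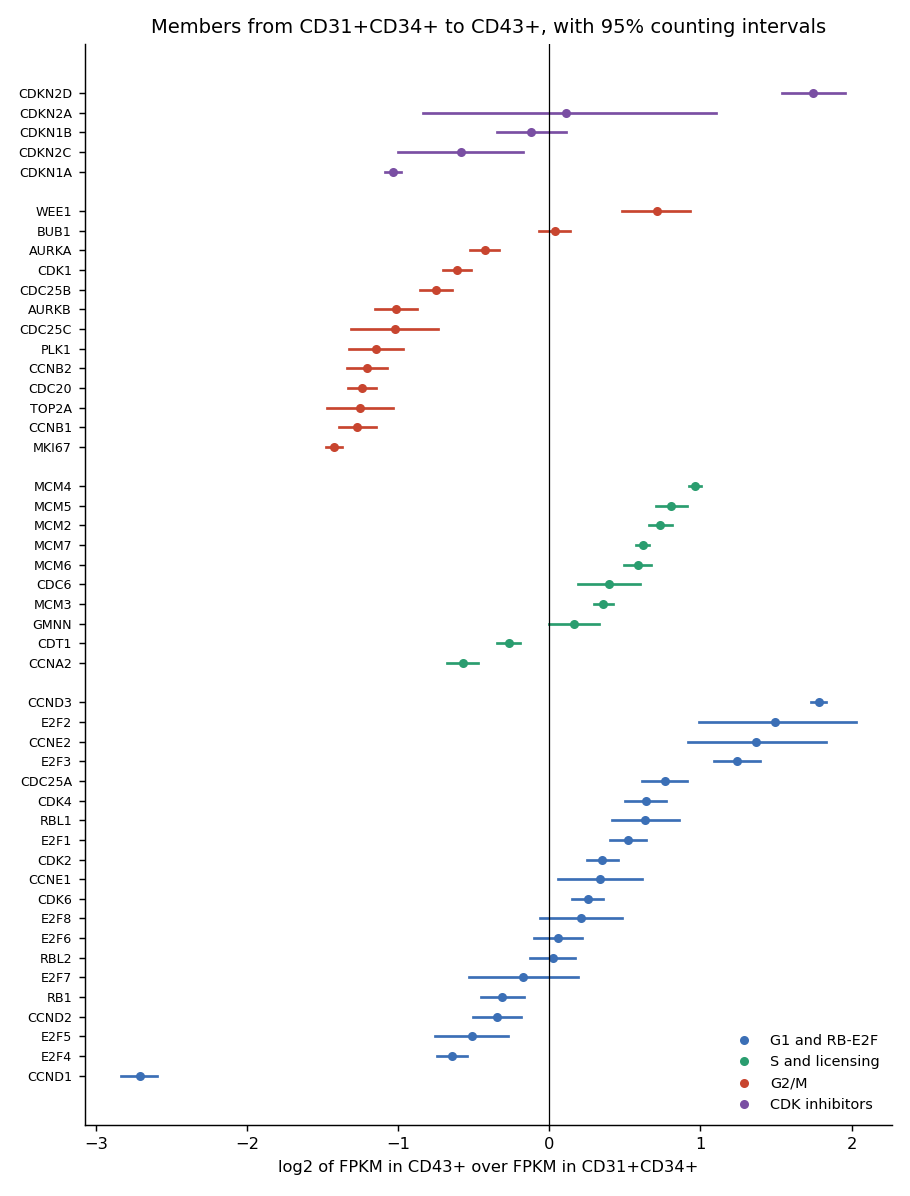
Log2 of the ratio of FPKM in CD43+ to FPKM in CD31+CD34+ for each gene (horizontal axis), with 95% counting intervals as bars and the classes in colors. CCNA1 and CDKN2B, at or below 3 fragments in CD43+, are left out. The G2/M genes lie to the left of 0 except BUB1 and WEE1, and CCND1 and CCND3 mark the ends of the G1 class.

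Of the 6 CDK inhibitor genes, CDKN1A, CDKN1B, CDKN2C and CDKN2D rose between BC1 and CD43+ and 0 fell, against 15.2% and 18.9% of all genes. CDKN2C passed the filter only through CD31+CD34+ and CD43+, the libraries where it was high, so its rise is no support for the count. CDKN1A (chromosome 6, 36676460 to 36687339), the gene of p21 and a target of p53, was at 12.6 and 23.7 FPKM in the first pair of libraries, at 228 FPKM in CD31+CD34+ and at 111 FPKM in CD43+. It rose 9.64-fold from APLNR+ to CD31+CD34+ (9.01 to 10.3), by 3.22 on the log2 scale, the largest change of the 49 genes at any step. From there to CD43+ it fell by 1.03 on the log2 scale, but the change was -0.97 under median-of-ratios scaling and so below the size counted. CDKN1B, the gene of p27, was at 9.51, 13.6, 24.1 and 22.2 FPKM and rose between BC1 and CD43+ by 1.14. In CD31+CD34+, CDKN1A alone made up 85.2% of the summed FPKM of the 6 inhibitor genes, which went from 24.9 FPKM in BC1 to 268 FPKM.

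Of the INK4 genes, CDKN2D led. CDKN2D (chromosome 19, 10566462 to 10569059), the gene of p19, was at 1.35, 3.39, 10.8 and 36.3 FPKM. It rose at the second and the last step, by 1.43 and 1.66, and its level in CD43+ was 26.9-fold that in BC1 (18.5 to 42.2). Its change at the first step, 0.90, was below the size counted. That change became 1.04 under TPM scaling, and 1.26 with 0.1 FPKM added in place of 1, so CDKN2D then rose at each step. CDKN2C, the gene of p18, was at 0.028, 0.383, 3.12 and 2.08 FPKM and rose from APLNR+ to CD31+CD34+, 8.14-fold (4.77 to 15.0). BC1 held about 1 fragment of CDKN2C, and the ratio of APLNR+ to BC1 was 13.8 with a counting interval of 2.11 to 579. CDKN2D and CCND3 thus had their highest levels in the same library, CD43+, and CDKN2D made up 90.4% of the INK4 sum there.

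The genes of the INK4 locus on chromosome 9 stayed low. CDKN2A (21967753 to 21995301) was at 1.23, 0.473, 1.59 and 1.71 FPKM, from about 6 fragments in APLNR+ to about 20 in CD31+CD34+ and in CD43+. Its counting interval from BC1 to CD43+, 0.694 to 3.21, spans no difference. A value of the whole gene cannot tell its products p16 and ARF apart, and the antisense gene CDKN2B-AS1, which overlaps it, was listed at 0 in each library. CDKN2B, the gene of p15, was at 0.188, 0.284, 0.106 and 0.059 FPKM, or about 13 fragments at most, and differences between these levels were not detectable at this depth.

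**Figure D5:**
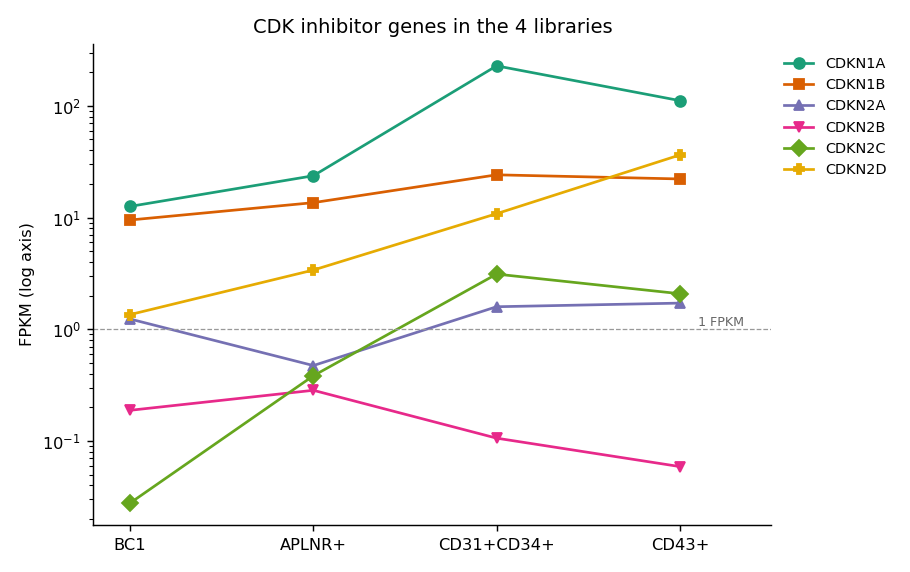
FPKM of the 6 CDK inhibitor genes (log axis, with 1 FPKM marked by a dashed line) in the 4 libraries. CDKN1A peaks at 228 FPKM in CD31+CD34+, CDKN2D climbs to 36.3 FPKM in CD43+, and CDKN2B stays below 1 FPKM.

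Other genes of the same machinery were read from 7 lists of 112 genes, named here by the size of their largest change at a step. Of the 14 other cyclins, CDKs and adaptors, 1 rose and 0 fell at the first step, 1 rose and 0 fell at the second, and 1 rose and 1 fell at the third. Of all genes, 9.15%, 13% and 7.63% rose at these steps, and 9.32%, 11.4% and 13.5% fell. CDKN1C, the gene of p57 and the remaining CIP/KIP inhibitor, rose at each step, from 2.52 FPKM in BC1 to 6.72, 36.3 and 95.2 FPKM. Like CCND3, it was higher in each library than in the one before. CDKN3, a phosphatase that acts on CDK2, was at 37.7, 43.1, 79.5 and 30.7 FPKM and fell at the last step. CCNG2, an atypical cyclin, was at 3.79, 8.49, 16.8 and 11.3 FPKM.

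Of 22 spindle and cytokinesis genes, 7 fell at the last step and 0 rose, against 13.5% and 7.63% of all genes. By any amount 21 were lower, against 55.3%, and the median change was -0.75, against -0.08. NEK2, a kinase of centrosome separation, was at 8.60, 17.3, 26.8 and 5.68 FPKM. PTTG1, the gene of securin, was at 101, 77.9, 153 and 47.2 FPKM. CENPA, the centromeric histone, was at 7.85, 18.7, 22.5 and 6.83 FPKM. These 3 genes were therefore highest in CD31+CD34+ and lowest in CD43+. MYBL2, the MYB factor that joins MuvB on G2/M promoters, was at 63.6, 79.8, 99.3 and 29.9 FPKM, and it was the only one of the 10 DREAM, MuvB and DP genes to fall at the last step, where 0 rose, against the same shares of all genes. Of the same list, TFDP2, a partner of E2F factors, was at 33.4, 13.3, 26.8 and 43.2 FPKM and fell at the first step, and LIN37 lay between 3.40 and 8.66 FPKM.

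Replication genes outside the 50 shared the low point of the MCM genes in part. Of 18 origin recognition and helicase genes, 8 were lowest in CD31+CD34+, and of 23 fork and nucleotide supply genes 12 were, against the 19.2% of all genes given above. CDC45, which joins the MCM ring to form the active helicase, was at 22.5, 19.3, 19.8 and 41.6 FPKM and rose at the last step. MCM9 was at 4.42, 2.32, 1.83 and 4.71 FPKM and rose there too, and RECQL4, at 36.1, 49.3, 24.1 and 31.5 FPKM, fell at the second step. RRM2, a subunit of ribonucleotide reductase, was at 78.3, 83.4, 38.6 and 53.7 FPKM and fell at the second step. TYMS, the thymidylate synthase, took the opposite course, at 46.4, 62.4, 123 and 112 FPKM. PRIM2, a primase subunit, was at 14.1, 5.67, 7.58 and 8.60 FPKM and fell at the first step.

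Among the 14 ubiquitin ligase genes of the SCF and APC/C, 1 fell at the last step and 0 rose, against 13.5% and 7.63% of all genes. FZR1, the APC/C activator that acts in G1, was at 13.4, 38.4, 31.9 and 15.3 FPKM, so it rose at the first step and fell at the last. SKP2, which targets p27 for destruction, was at 33.2, 59.8, 25.0 and 16.8 FPKM and fell at the second step, with a change of -1.22. ANAPC4 was at 15.4, 6.52, 7.10 and 11.6 FPKM. Of the 11 checkpoint and p53 target genes, 2 rose at the first step and 2 at the second, against 9.15% and 13% of all genes. GADD45A, a stress-induced p53 target, was at 13.7 FPKM in BC1 and at 144, 155 and 194 FPKM afterwards. Its counted rise came a step before that of CDKN1A. CDKN1A was already higher in APLNR+ than in BC1, by 0.86, which was below the size counted. BTG2, another p53 target, was at 2.92, 9.38, 42.2 and 38.2 FPKM and rose at both. SFN, the p53 target that encodes 14-3-3 sigma, was at 6.03, 6.08, 0.366 and 0.045 FPKM and fell at the second step. The p53 targets of the list therefore did not move in 1 direction.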

How the data were processed

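Total RNA of 4 populations was sequenced after preparation with an Illumina TruSeq RNA kit, 1 library per population. The deposited values are FPKM per gene as the authors computed them, and the column of each population was found by its name. The submitters' processing notes name BWA, Bowtie and RSEM, without versions or roles, and the build hg19. The positions in the deposited table, however, were those of GENCODE 29 on GRCh38 for 55645 of the 55647 identifiers with the same version, and for 46 of the 50 genes, so positions are given on GRCh38 and counted from 1. Whether strand was used is not given in the sources used here.

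Rows of 1 gene identifier (90 identifiers had more than 1) were summed. A gene entered when any library reached 1 FPKM (17137 of 58274), and changes were computed as differences of log2(FPKM + 1) and counted from a size of 1. With 1 library per population no test was possible, and no correction for multiple tests applies.

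The depth was recovered from the steps between low FPKM values of 7668 genes with a single transcript of at least 1000 bases. From 93.2% to 95.1% of the low values fell within 0.1 of a whole number of fragments. In the order of differentiation, the libraries had 19700000, 21500000, 23600000 and 21600000 mapped fragments. Fragments of a gene were approximated from the median of its coding transcripts' lengths. Intervals are too wide where the main transcript is longer than that and too narrow where it is shorter. Folds carry exact Clopper-Pearson 95% intervals, and the floor was 3 fragments per library. Both describe counting error alone, since cultures and sorts were not repeated. The steps from FPKM to depth and to changes were tested on simulated FPKM, and the intervals on simulated counts of known exposure. The approximation of fragments from a median transcript length was not tested.

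The 50 members, their 4 classes and the 7 other lists were chosen with earlier results of these data known. Levels in every library are given for each member that changed by 1 or more and for every CDK inhibitor, D cyclin, CDK and MCM gene, and levels or ranges for the rest. Of each other list, the 3 genes with the largest change at a step are named. Exon overlaps were read from GENCODE 29. Of the 50 genes, 11 shared exon bases with a gene that reached 1 FPKM, and not all of them are named above. Promoter windows were from RefSeq (GRCh38.p14), and no protein sequence was used. The alternatives tried were a pseudocount of 0.1, no filter, a filter of 5 FPKM, TPM and median-of-ratios scaling, the largest row of an identifier, a counted change of 2, the mean in place of the median and a background of protein-coding genes. Python 3.11.15, numpy 2.4.6, pandas 2.3.3, scipy 1.17.1 and matplotlib 3.10.9 were used.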

Additional observations from a re-analysis of the deposited data

How the results depend on the processing

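No direction of a counted change reversed under any alternative. Counts of rising and falling genes depended on the settings where it was small. From BC1 to APLNR+, 5 rose and 2 fell with a pseudocount of 0.1 (13.6% and 15.0% of all genes), 2 fell under median-of-ratios scaling (9.97% of all genes) and 0 fell with a filter of 5 FPKM (8.53%). From CD31+CD34+ to CD43+, 5 rose with a pseudocount of 0.1 (11.1% of all genes). With a change of 2 counted, 0 rose and 0 fell at the first step, 1 rose and 0 fell at the second, 0 rose and 1 fell at the third, and 3 rose and 1 fell between BC1 and CD43+. The shares of all genes with such a change were 2.68% and 2.29%, 4.08% and 3.15%, 2.28% and 4.32%, and 5.37% and 6.77%. Of the 49 genes' medians by class, that of the inhibitors moved most. From BC1 to APLNR+ it was 0.91 with a pseudocount of 0.1 and 0.86 with a filter of 5 FPKM, and from APLNR+ to CD31+CD34+ it was 1.12 with no filter. The S-phase and licensing median at the last step was 0.47 with a filter of 5 FPKM and 0.27 under TPM scaling, and the G2/M median was -1.12 under TPM scaling. Taking class means instead of medians gave 0.26 for the G1 class at the first step, -0.35 for the S-phase and licensing class and 0.30 for the G2/M class at the second, and -0.79 for the G2/M class at the last. It also gave 0.11 for the checkpoint list at the first step and -0.0317 for the SCF and APC/C list at the last. The sign of the G2/M median at the second step was thus not settled by these settings. Small changes of RB1, RBL1, PLK1, CDK1, RBL2, CDKN2A, E2F6, BUB1, MCM2, E2F3 and E2F4 changed sign at a step or between BC1 and CD43+ under a scaling, all of them below 0.10 in size. No paired analysis was possible because each population had 1 library. No library could be left out for the same reason. Counting error limits CDKN2A, CDKN2B, CDKN2C and CCNA1, which had few fragments, and the variation between cultures was not measured.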
